A study of Homo sapiens with 32 samples.

Results

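The Notch receptors, ligands and targets described here are 10 genes, NOTCH1, NOTCH2, NOTCH3, DLL1, DLL3, JAG1, JAG2, DLK1, HES1 and HEY1, and the H3K27ac regions that lie at them. A region belonged to one of these genes if its nearest protein-coding start site within 100 kb was that gene's, or if it overlapped the gene's body. By this rule 83 of the 92092 regions were members, with 16 at NOTCH1, 1 at NOTCH2, 7 at NOTCH3, 3 at DLL1, 2 at DLL3, 6 at JAG1, 4 at JAG2, 10 at DLK1, 20 at HES1 and 14 at HEY1. The assignment of regions to these genes used no measured value. The nearest gene need not be the one that a region regulates.

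H3K27ac, the acetylation of histone H3 that marks active enhancers and promoters, was profiled by ChIP-seq. The cells were SK-N-BE(2)C, an established human neuroblastoma cell line. They were kept for 5 days in PB+RA (palbociclib, an inhibitor of the cell cycle kinases CDK4 and CDK6, with retinoic acid, a differentiating agent), in RA alone, in PB alone, or in the solvent DMSO. Palbociclib was used at 1 µM. Each group had 4 ChIP libraries from different passages of the one cell line, and 16 input libraries served as the background for peak calling.

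Notch receptors are membrane proteins that are cleaved once a ligand on a neighbouring cell binds them, and the freed intracellular part enters the nucleus and joins the DNA-binding protein RBPJ to switch on target genes. HES and HEY proteins are the best known of these targets and are repressors that hold back neuronal differentiation genes in many progenitor cells. Signals between neighbouring cells through Delta and Jagged ligands set how many cells of the developing nervous system, including the neural crest from which neuroblastoma arises, differentiate at a given time.

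The 300 bases around the start sites of NOTCH3, DLL3, DLK1 and HES1, from 250 bases before to 50 from the start site on, are shown because the H3K27ac region over each of these start sites differed from DMSO in at least 1 comparison. They were read from the hg19 genome on each gene's own strand, at chr19:15311757-15312056 (minus strand, NOTCH3), chr19:39989337-39989636 (plus strand, DLL3), chr14:101192979-101193278 (plus strand, DLK1) and chr3:193853687-193853986 (plus strand, HES1). Capitals mark matches on either strand to TGGGAA, the core bound by RBPJ, to CACGTG or CACNAG, the E-box and N-box that HES and HEY proteins bind, to the E2F forms TTTCCCGC and TTTGGCGC, or to a retinoic acid response element, searched as 2 copies of AGGTCA or AGTTCA in the same direction with 1, 2 or 5 bases between them.
NOTCH3: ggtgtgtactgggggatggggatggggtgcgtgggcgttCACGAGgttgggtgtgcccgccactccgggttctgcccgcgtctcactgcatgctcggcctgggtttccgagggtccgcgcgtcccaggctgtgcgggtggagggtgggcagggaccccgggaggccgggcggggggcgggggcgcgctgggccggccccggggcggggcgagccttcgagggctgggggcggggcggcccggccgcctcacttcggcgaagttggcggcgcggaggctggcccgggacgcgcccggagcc
DLL3: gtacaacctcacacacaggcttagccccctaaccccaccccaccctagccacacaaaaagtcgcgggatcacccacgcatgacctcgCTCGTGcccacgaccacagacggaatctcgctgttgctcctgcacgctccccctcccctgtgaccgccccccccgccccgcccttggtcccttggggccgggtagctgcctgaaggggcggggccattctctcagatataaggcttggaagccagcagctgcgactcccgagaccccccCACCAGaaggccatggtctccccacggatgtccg
DLK1: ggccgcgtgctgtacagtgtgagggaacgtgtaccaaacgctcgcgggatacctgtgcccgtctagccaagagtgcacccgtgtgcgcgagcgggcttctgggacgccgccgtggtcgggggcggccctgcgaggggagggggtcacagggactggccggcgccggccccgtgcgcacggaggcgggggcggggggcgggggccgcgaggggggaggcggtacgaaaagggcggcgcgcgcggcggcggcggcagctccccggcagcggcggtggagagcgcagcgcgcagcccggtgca
HES1: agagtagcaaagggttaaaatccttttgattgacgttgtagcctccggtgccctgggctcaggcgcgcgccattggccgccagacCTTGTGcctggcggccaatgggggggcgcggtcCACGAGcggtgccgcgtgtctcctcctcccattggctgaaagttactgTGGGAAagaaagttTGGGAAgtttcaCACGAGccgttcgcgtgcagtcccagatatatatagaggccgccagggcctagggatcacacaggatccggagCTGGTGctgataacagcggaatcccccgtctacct
The HES1 promoter held 2 copies of TGGGAA in the same direction, beginning at positions -84 and -70 from the start site, and 4 N-boxes. The HEY1 promoter, whose sequence is not printed, held 2 copies of TGGGAA at -66 and -49, and the core was found in none of the other 8 promoters. Among 19514 protein-coding promoters of the same length, 22.1% held TGGGAA, 36.1% an N-box, 8.76% the E-box, 3.07% an E2F form and 0.133% a retinoic acid response element. NOTCH3 and DLL3 held 1 and 2 N-boxes, and the DLK1 window held none of the motifs. None of the matched stretches in the printed promoters overlapped another. A retinoic acid response element was found in no member promoter, and in the middle 1000 bases of 5 of the 83 member regions (6.02%, against 2.25% of all 92092 regions), which were region 6 of NOTCH1, region 5 of DLK1, region 14 of HES1 and regions 5 and 8 of HEY1. These matches describe letters only.

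Acetylation was measured in each library from its broad peaks. The peak value of a region is the fold enrichment over input of the peaks that cover it, averaged over the bases of the region with 0 where no peak was called, and the gene total is the sum over a gene's regions of peak value times length in kb. Differences are on the scale of log2(value + 1), and a difference was called at an adjusted p under 0.05 (limma, Benjamini-Hochberg over all 92092 regions or all 16594 genes) with a size beyond 0.5. The 16 libraries held 64516 to 104392 peaks, with the fewest in DMSO replicate 3, and log2 peak values of libraries of 1 group correlated at 0.746 to 0.903. The depth in reads is unknown. All 10 adrenergic neuroblastoma marker genes had a peak within 1000 bases of the start site in all 16 libraries, while PTPRC, CD3E, TEK, KDR, KRT5 and ALB, markers of blood, endothelial, epithelial and liver cells, had none. CD14 had one in all 16, and SPI1, CDH5, EPCAM and CDH1 in at most 4 (PECAM1 was not placed).

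Among the 10 gene totals, more were called lower than higher in each comparison with DMSO. With PB, the totals of NOTCH1, NOTCH3, JAG2 and HES1 were called lower and none was called higher (4 and 0 of 10, where 12.2% and 4.62% of all genes were called). With RA, DLL3 and DLK1 were called lower and HEY1 higher (6.66% and 9% of all genes). With PB+RA, NOTCH1, NOTCH3, DLL3, JAG2, DLK1 and HES1 were called lower and HEY1 higher (19.2% and 15.2% of all genes). The 3 comparisons share their 4 DMSO libraries. Every PB library was below every DMSO library for 4 of the 10 totals and above for 0, against 15% and 5.34% of all genes. With RA such separation held for 2 below and 1 above (9.7% and 10.2% of all genes), and with PB+RA for 2 and 1 (15.4% and 13.3%). Counting at an unadjusted p under 0.05, still no total was higher with PB and 4 were lower (40% in either direction, against 33.2% of all genes). NOTCH2, DLL1 and JAG1 were called in none of these comparisons. An exact permutation test of the log2 totals, unadjusted, gave less for some calls. With PB+RA its p was 0.0571 for NOTCH1 and JAG2 and 0.0857 for NOTCH3 and DLL3, and with RA 0.0857 for DLL3. For the other calls against DMSO the exact permutation p was 0.0286, the smallest that 4 against 4 libraries allow.

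**Figure D1:**
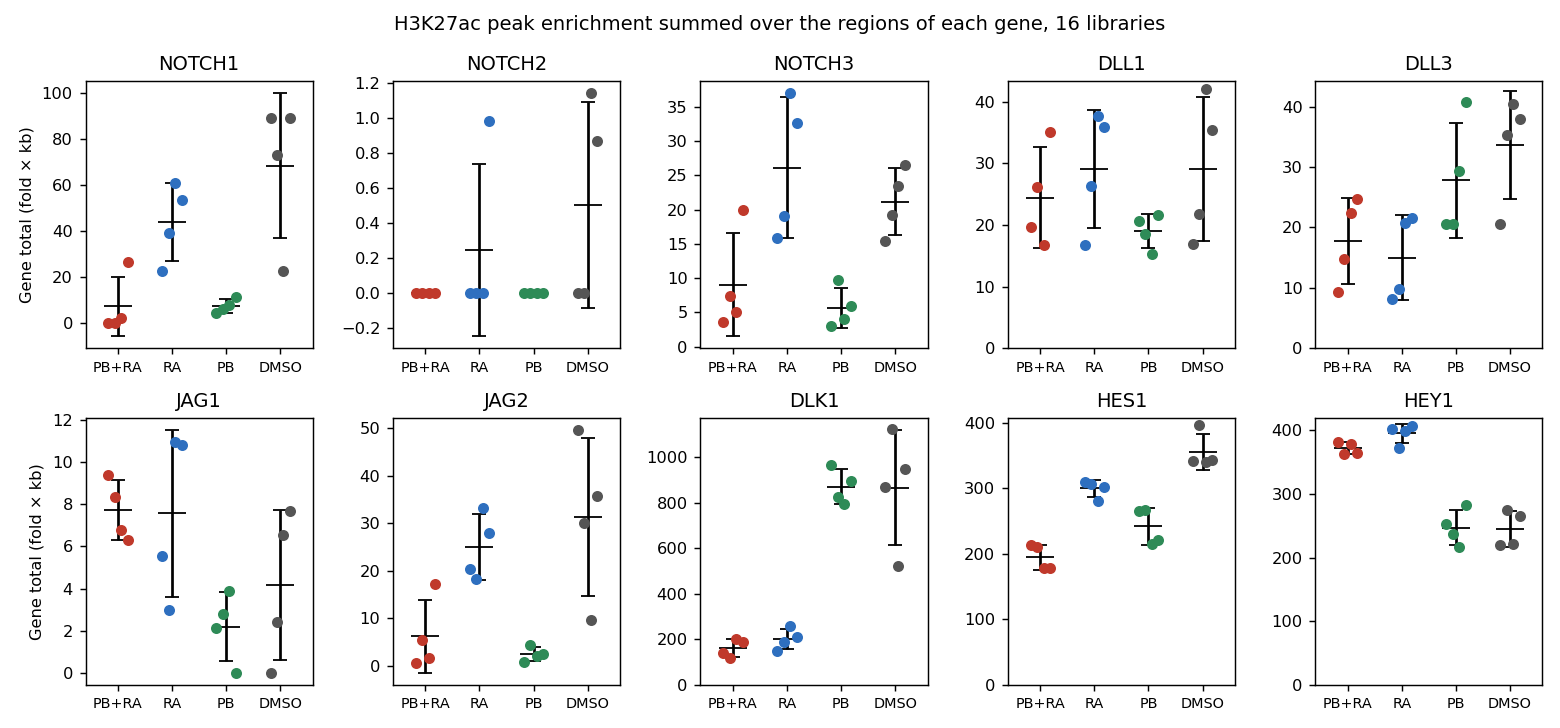
Gene totals (fold enrichment times kb, vertical axes) of the 10 Notch genes in the 4 libraries of each group, with points for libraries and bars for mean and SD. DLK1 sits between 119 and 257 in the PB+RA and RA libraries and at 520.1 or more in all PB and DMSO libraries, while HEY1 is at 363 or more in PB+RA and RA and at 282 or less in PB and DMSO.

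Region by region, 0 of 83 were called higher and 7 lower with PB, against 4.86% and 4.37% of all regions. At an unadjusted p under 0.05, 1 was higher and 31 were lower (38.6% in either direction, against 26.5% of all regions). The 7 were 3 regions of NOTCH1, 3 of NOTCH3 and 1 of HES1, and the count rests on single libraries. It was 22 without DMSO replicate 3, 2 without DMSO replicate 1, 3 without DMSO replicate 2, 3 without DMSO replicate 4, 3 without PB replicate 1, 2 without PB replicate 2 and 4 without PB replicate 4, and 1 region was higher without PB replicate 1 or without PB replicate 2. Over all regions, the calls with PB in either direction moved as well. They were 8495 as reported, 11755 without DMSO replicate 3 and 5279 without PB replicate 2. With RA, 5 were called higher (4 at HEY1, 1 at HES1) and 8 lower (7 at DLK1, 1 at DLL3), against 10.3% and 6.67% of all regions. The 5 became 3 without DMSO replicate 4 and 8 without RA replicate 1. With PB+RA, 5 were called higher and 27 lower, against 18.3% and 12% of all regions, so that 32.5% of member regions were called lower. These 27 were 8 at NOTCH1, 7 at DLK1, 6 at HES1, 3 at NOTCH3 and 1 each at DLL3, JAG2 and HEY1.

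**Figure D2:**
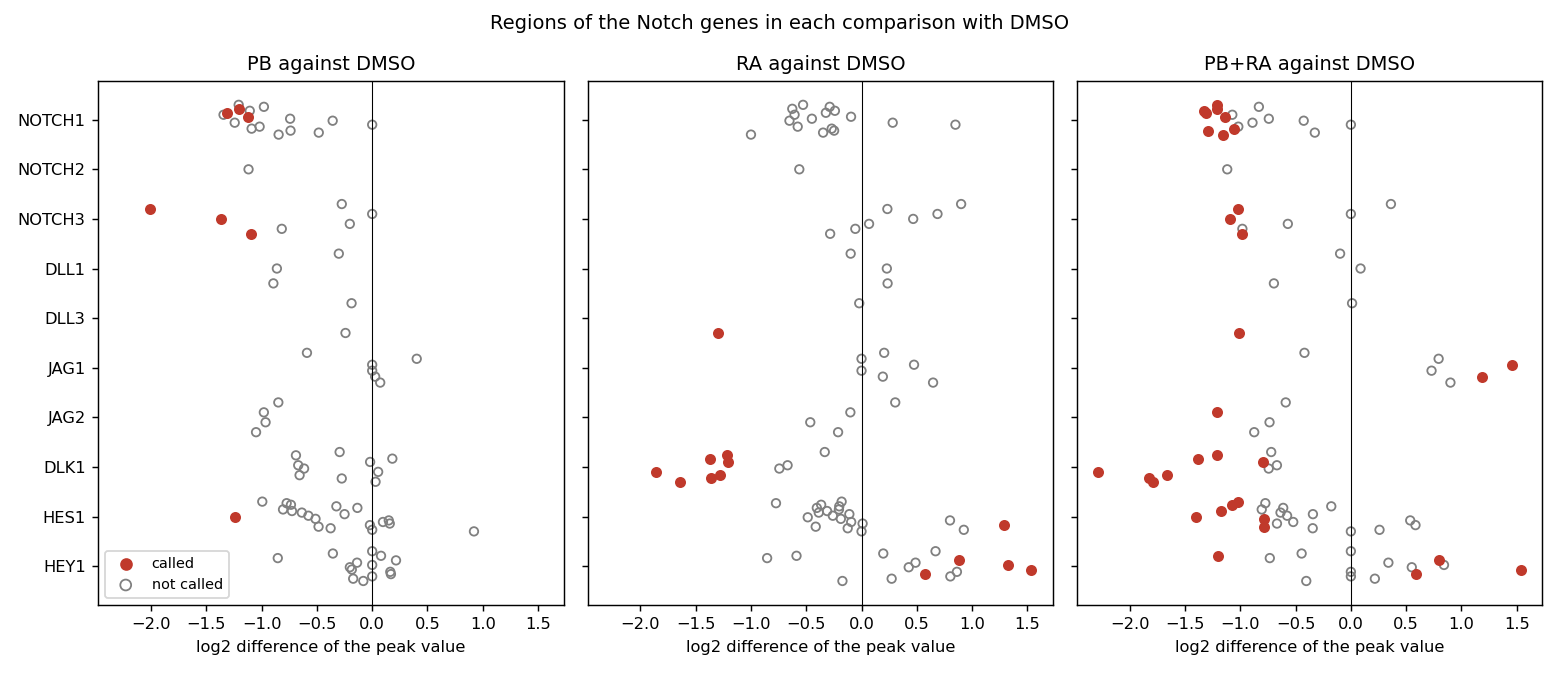
Difference in log2(peak value + 1) of each of the 83 regions (1 point each, grouped by gene down the page) for PB, RA and PB+RA against DMSO, with called regions filled. The 7 regions called with PB lie at NOTCH1, NOTCH3 and HES1, the 8 called lower with RA at DLK1 and DLL3, and the 27 called lower with PB+RA at 7 genes.

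Base composition moved with these differences. The median GC content was 54.3% over the member regions and 47.1% over all regions. It was 70.6% at DLL1, 69.9% at NOTCH2, 67.2% at JAG2, 63.4% at NOTCH1 and 61.4% at NOTCH3, against 57.4% at DLL3, 53.7% at DLK1, 50.3% at HES1, 48.2% at JAG1 and 45.6% at HEY1. Over all regions, the authors' mean log2 concentration of a group, the second measure used here, also followed GC content. In the most GC-rich of 10 equal classes of regions its median difference from DMSO was -0.87 with PB+RA, -0.17 with RA and -0.86 with PB, and in the most AT-rich class it was 0.99, 0.59 and 0.56. At the NOTCH1 regions the medians were -1.51, -0.43 and -1.25, and at the JAG2 regions -1.14, -0.43 and -1.03. When log2 values were centred within 10 classes of GC content in each library, 2 of 83 regions (1.82% of all) and 2 of 10 genes (2.82% of all) were called lower with PB. With PB+RA these were 15 regions (11.4%) and 3 genes (11.1%). Each call on a gene total or a named region that ended under this centring is given beside it, and beyond this centring the part of GC content in the results was not tested.

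Other settings also ended calls. With only peaks of a −log10 q of at least 5, no library had a peak in region 13 of NOTCH1, region 4 of JAG1, region 3 of JAG2 or region 10 of HES1, and the calls ended for NOTCH1 (-2.73), JAG2 (-0.99) and HES1 (-0.40) with PB, for JAG2 (-0.99) and DLL3 (-1.75) with PB+RA and for DLL3 (-1.82) with RA. With the share of bases covered in place of the peak value, they ended for NOTCH3 (-0.72), DLL3 (-0.18) and HEY1 (0.31) with PB+RA, for DLL3 (-0.28) with RA and for HES1 (-0.51) with PB. The scaling of the libraries moved the median difference over all genes with PB, which was -0.14 as reported, -0.29 without scaling, -0.02 with quantile normalization and 0.04 with GC centring. Of the genes called with PB, 27.6% were higher, and 12.4%, 44.1% and 62% under these 3 settings. With PB+RA, 44.1% of the called genes were higher, and 59% with GC centring. Of the called regions, 52.6% were higher with PB (38.8% without scaling and 65.4% with GC centring) and 60.7% with RA (50% with GC centring).

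NOTCH1, the receptor of the family that is mutated in T cell leukaemia, lies at chr9:139388885-139440500 (hg19, minus strand). Its total was 0, 0, 2.05 and 26.4 in the PB+RA libraries, 22.3, 38.9, 61.0 and 53.4 in RA, 4.18, 5.94, 7.83 and 11.4 in PB, and 89.0, 73.0, 22.5 and 89.0 in DMSO. All 4 PB libraries were below all 4 DMSO libraries, while PB+RA replicate 4 was above DMSO replicate 3 and the RA and DMSO libraries overlapped. The difference from DMSO was -4.34 ± 0.74 with PB+RA (SE, limma adjusted p = 0.000123), -0.54 ± 0.74 with RA (limma adjusted p = 0.729) and -2.95 ± 0.74 with PB (limma adjusted p = 0.00946). After GC centring the differences were -1.57 with PB+RA and -1.27 with PB, and both were still called (limma adjusted p = 0.000838 and 0.0176).

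The loss at NOTCH1 was spread over the gene and the stretch upstream of it. Peaks covered 0, 0, 0.734 and 8.78 kb of its regions in PB+RA libraries, 7.003, 12.2, 16.9 and 15.3 kb in RA, 1.46, 2.13, 2.10 and 2.44 kb in PB, and 22.5, 25.7, 5.91 and 30.4 kb in DMSO. Region 7, over the start site (chr9:139438536-139441727, promoter and start of the gene body), had no peak in any PB library, peak values of 0, 0, 0.322 and 1.02 in PB+RA, 0.484, 0.716, 3.91 and 4.49 in RA, and 0.656, 0.745, 1.54 and 3.28 in DMSO. It was not called in any comparison with DMSO (limma adjusted p = 0.0594 for PB), although with PB it was with a pseudocount of 0.25, with the share covered and without RA replicate 1 (limma adjusted p = 0.025, 0.037 and 0.049). Region 13, intergenic and 31.6 kb upstream (chr9:139472057-139474142), had no peak in any PB+RA library and values of 2.56, 1.35, 0.651 and 1.86 in DMSO, the largest called difference at NOTCH1 (-1.33 ± 0.35, limma adjusted p = 0.00652). That call ended with GC centring (-0.80, limma adjusted p = 0.079). Region 1 of NOTCH1 has its nearest start site at SEC16A.

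**Figure D3:**
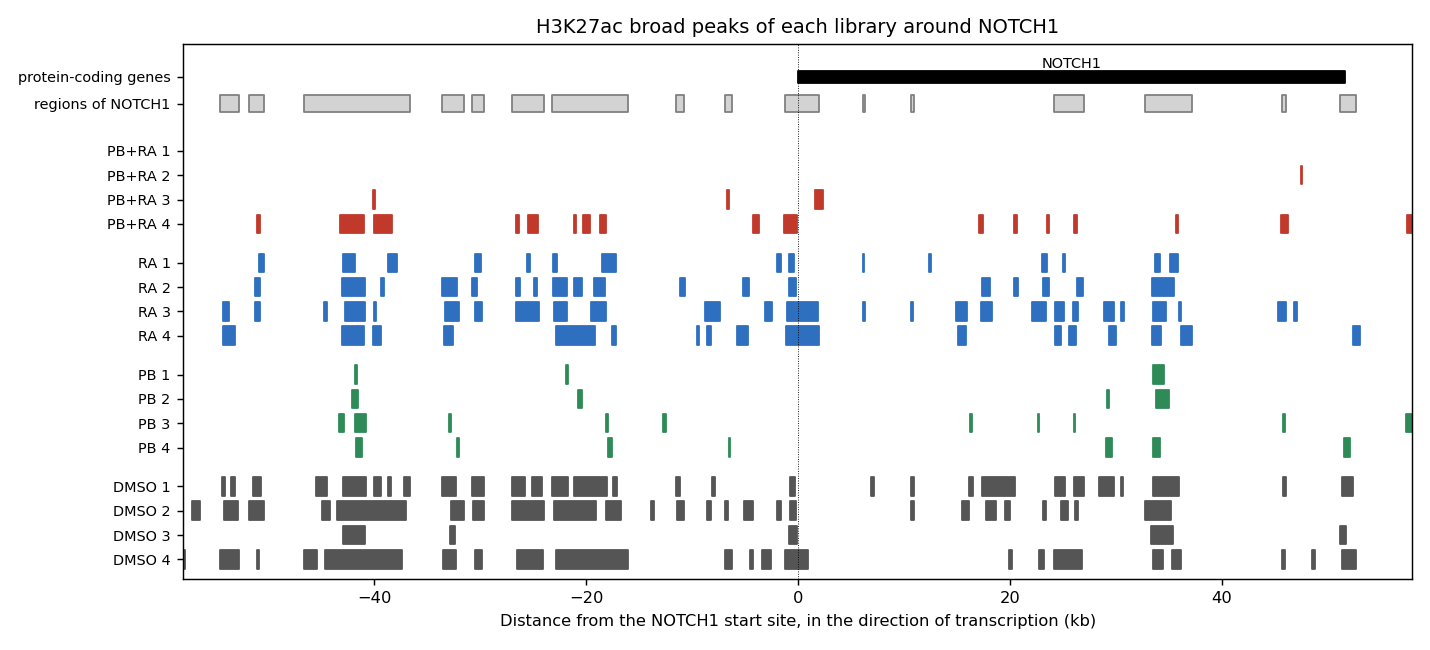
Broad peaks of each of the 16 libraries (1 row each) around NOTCH1, by distance from the start site in kb, with the regions and the gene drawn above. PB+RA replicates 1 and 2 hold no peak within the NOTCH1 regions, and the PB rows hold 1.46 to 2.44 kb of peaks there, against 5.91 to 30.4 kb in DMSO.

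NOTCH2, a receptor with near-identical partial copies (the NOTCH2NL genes) elsewhere on chromosome 1, had a single short region, within the gene and 0.393 kb past its start site. Because reads can be split between such copies, its values are uncertain. Its total was 0 in all PB+RA and PB libraries, 0, 0, 0 and 0.986 in RA, and 0, 0, 1.14 and 0.869 in DMSO. It was called in no comparison with DMSO (limma adjusted p = 0.277, 0.734 and 0.342 for PB+RA, RA and PB).

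NOTCH3, a receptor best known in vascular smooth muscle, lies at chr19:15269849-15311806 (minus strand). Its total was 3.61, 7.46, 5.10 and 20.0 in PB+RA, 15.9, 19.0, 37.02 and 32.7 in RA, 2.99, 9.68, 4.05 and 5.99 in PB, and 15.4, 19.3, 23.5 and 26.5 in DMSO. The PB libraries were all below DMSO, 3 of the 4 PB+RA libraries were too, and RA overlapped with DMSO. The difference was -1.37 ± 0.41 with PB+RA (limma adjusted p = 0.0123), 0.24 ± 0.41 with RA (limma adjusted p = 0.799) and -1.81 ± 0.41 with PB (limma adjusted p = 0.00527). GC centring ended both calls (-0.46 with PB+RA and -0.80 with PB, limma adjusted p = 0.267 and 0.113), and leaving out PB+RA replicate 1 ended that with PB+RA (limma adjusted p = 0.056). The change was largest at region 6 (chr19:15310361-15312163), which covers the promoter printed above and has a GC content of 72.8%. Its peak values were 2.00, 2.53, 0.394 and 4.32 in PB+RA, 4.17, 4.86, 9.17 and 7.22 in RA, 0.224, 1.89, 0 and 0.423 in PB, and 4.37, 4.20, 5.69 and 6.10 in DMSO. With PB, where every library was below every DMSO library, it was called lower (-2.01 ± 0.34, limma adjusted p = 0.000955). With PB+RA it was called too (-1.02 ± 0.34, limma adjusted p = 0.0243), a call that ended with GC centring or without DMSO replicate 3, DMSO replicate 4, PB+RA replicate 1 or PB+RA replicate 3 (limma adjusted p = 0.24, 0.052, 0.062, 0.051 and 0.12), and with a pseudocount of 0.25 or the share covered (limma adjusted p = 0.065 and 0.54). PB+RA was called higher than PB there (0.99 ± 0.34, limma adjusted p = 0.0454), a call that ended with only those groups in the fit and when most of the single libraries were left out (limma adjusted p = 0.051 to 0.17).

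DLL1, a Delta ligand that activates receptors on the next cell, had totals of 19.6, 26.1, 16.8 and 35.2 in PB+RA, 16.8, 26.3, 37.6 and 35.9 in RA, 20.6, 18.5, 15.3 and 21.6 in PB, and 16.9, 21.7, 42.0 and 35.4 in DMSO. All groups overlapped and none of its 3 regions was called in any comparison with DMSO. Its start-site region (chr6:170598538-170600987) had peak values of 0 to 1.75 in PB+RA, 0.297 to 4.63 in RA, 0 to 0.626 in PB and 0 to 3.18 in DMSO. The neighbour FAM120B has a start site nearest to or shared with all 3 regions of DLL1, so these signals cannot be told apart by gene.

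DLL3, an atypical ligand found mainly inside the cell and used as a surface target in neuroendocrine tumours, lies at chr19:39989535-39999121 (plus strand). Its total was 9.28, 14.7, 22.4 and 24.7 in PB+RA, 8.13, 9.73, 20.7 and 21.5 in RA, 20.5, 20.6, 29.3 and 40.7 in PB, and 20.6, 35.3, 40.4 and 38.01 in DMSO. DMSO replicate 1 was lower than the highest libraries of each drug group, so the groups overlapped. The difference was -0.93 ± 0.35 with PB+RA (limma adjusted p = 0.0406), -1.18 ± 0.35 with RA (limma adjusted p = 0.0207) and -0.28 ± 0.35 with PB (limma adjusted p = 0.624). The call with RA ended without DMSO replicate 2, 3 or 4 or RA replicate 1 or 2 (limma adjusted p = 0.055 to 0.089), and that with PB+RA without DMSO replicate 2, 3 or 4 or PB+RA replicate 1 or 2 (0.087 to 0.15), with GC centring (0.253) and with quantile normalization (0.050). The start-site region (chr19:39986888-39990557, the promoter printed above and the first part of the gene) was called with both treatments. Its peak values were 1.596, 2.86, 4.34 and 4.42 in PB+RA, 1.63, 1.56, 3.396 and 3.4 in RA, 4.90, 4.17, 6.46 and 9.67 in PB, and 4.77, 8.98, 8.21 and 7.94 in DMSO, so every PB+RA and RA library was below every DMSO library. The difference was -1.01 ± 0.26 with PB+RA and -1.30 ± 0.26 with RA (limma adjusted p = 0.00589 and 0.00126). Both calls ended with the share covered (-0.43 and -0.54, limma adjusted p = 0.16 and 0.12), and that with PB+RA also with peaks of a −log10 q of at least 5 (limma adjusted p = 0.107). Region 2, at the far end of the gene with its nearest start site at SELENOV, was not called.

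JAG1, the Jagged ligand mutated in Alagille syndrome, had few peaks, and those it had lay mostly far past the gene. Its total was 9.41, 8.33, 6.78 and 6.31 in PB+RA, 5.53, 2.97, 10.95 and 10.8 in RA, 2.11, 2.77, 3.88 and 0 in PB, and 0, 2.42, 6.52 and 7.70 in DMSO. It was called in no comparison with DMSO (1.16 ± 0.58 with PB+RA, limma adjusted p = 0.129), although every PB+RA library was above every PB library (1.65 ± 0.58, limma adjusted p = 0.0598, exact permutation p = 0.0286, the smallest that 4 against 4 libraries allow). That difference was called with only those groups in the fit (limma adjusted p = 0.025). The start-site region (chr20:10653076-10655737) had a peak in 2 PB+RA, 2 RA, 1 PB and 2 DMSO libraries. Region 4 (chr20:10599829-10600768), intergenic, 53.9 kb downstream of the start site and 39.0% GC, had peak values of 2.45, 3.32, 2.84 and 0 in PB+RA, 2.73, 0, 0 and 0 in RA, and no peak in any PB or DMSO library. It was called higher with PB+RA against DMSO (1.46 ± 0.44, limma adjusted p = 0.0145), a call that ended with GC centring (0.83, limma adjusted p = 0.17) and without PB+RA replicate 2 (limma adjusted p = 0.05). Only PB+RA had a peak there in at least 2 of 4 libraries, the condition for a region to be in the set. The region was thus tested only because of the group where it was called higher, and the call is a description. The JAG1 total includes this region, so its higher values in PB+RA are partly built in by that condition and are also a description. With only start sites within 10 kb, the difference of the total from DMSO with PB+RA was -0.32 (limma adjusted p = 0.81).

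JAG2, the other Jagged ligand, lies at chr14:105607319-105635161 (minus strand). Its total was 0.503, 5.47, 1.52 and 17.2 in PB+RA, 20.3, 18.3, 33.3 and 27.9 in RA, 0.778, 4.38, 1.98 and 2.44 in PB, and 49.6, 30.0, 9.62 and 35.7 in DMSO. All PB libraries were below all DMSO libraries, and only PB+RA replicate 4 exceeded DMSO replicate 3. The difference was -2.61 ± 0.60 with PB+RA (limma adjusted p = 0.00184), -0.15 ± 0.60 with RA (limma adjusted p = 0.929) and -3.15 ± 0.60 with PB (limma adjusted p = 0.00148). GC centring left the PB call (-1.19, limma adjusted p = 0.0322) and ended the PB+RA call (-0.82, limma adjusted p = 0.0728). Of its regions, 1 was called with PB+RA, region 3 inside the gene (chr14:105628672-105631609, -1.21 ± 0.37, limma adjusted p = 0.0166), where GC centring, leaving out DMSO replicate 1 and leaving out DMSO replicate 2 each ended the call (limma adjusted p = 0.17, 0.066 and 0.058). The start-site region (chr14:105632100-105638763) was not called, with peak values of 0.0755 to 0.730 in PB+RA, 0.306 to 2.98 in RA, 0 to 0.463 in PB and 0.122 to 2.87 in DMSO.

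DLK1, an imprinted Delta-like protein that lacks the receptor-binding domain of the other ligands and is known as a marker of immature neuroendocrine cells, had the highest gene total of the 10 in DMSO. Its total was 141, 119, 203 and 189 in PB+RA, 149, 187, 257 and 209 in RA, 964, 826, 796 and 895 in PB, and 870.0, 1123, 520.1 and 948 in DMSO. The PB+RA and RA libraries were all below the PB and DMSO libraries, and PB lay within the range of DMSO. The difference was -2.38 ± 0.21 with PB+RA (limma adjusted p = 6.43e-08), -2.08 ± 0.21 with RA (limma adjusted p = 5.4e-07) and 0.06 ± 0.21 with PB (limma adjusted p = 0.889). GC centring changed neither call (-1.90 and -2.08). Leaving out DMSO replicate 3, the shallowest by peaks, gave -2.61 and -2.30.

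Peaks spanned 26.03, 17.8, 40.4 and 37.4 kb of the DLK1 regions in PB+RA, 30.2, 44.1, 58.7 and 45.4 kb in RA, 96.5, 93.1, 90.8 and 93.3 kb in PB, and 109.7, 128, 81.9 and 126 kb in DMSO. Regions 1, 4 and 8, of 37043, 33491 and 32903 bases, were the longest. Region 4 (chr14:101174107-101207597), which covers the whole gene and the promoter printed above, had peak values of 0.186, 0.248, 0.480 and 0.697 in PB+RA, 0.519, 0.839, 1.43 and 0.790 in RA, 6.09, 5.49, 6.31 and 6.26 in PB, and 5.89, 7.33, 3.91 and 6.46 in DMSO. Its difference from DMSO was the largest in size of any member region (-2.29 ± 0.20 with PB+RA, limma adjusted p = 6.57e-08, and -1.86 ± 0.20 with RA, limma adjusted p = 1.66e-06). The upstream region 1, 41.4 kb before the start site, fell to 1.44, 1.43, 1.67 and 1.76 in PB+RA and 1.43, 1.94, 2.16 and 1.93 in RA, against 8.19, 10.97, 4.73 and 8.89 in DMSO. Region 8, 36.1 kb after the start site, was at 2.16, 1.52, 3.22 and 2.61 in PB+RA and 1.91, 2.05, 2.91 and 2.68 in RA, against 7.77, 10.3, 5.01 and 8.52 in DMSO. Regions 2, 3, 7 and 9 were called lower with both treatments as well, and regions 5, 6 and 10, with a peak in at most 2 libraries of a group, were not. Regions 8, 9 and 10 reach past the annotated start of MEG3, the imprinted non-coding gene next to DLK1, which the assignment to protein-coding genes leaves out, so acetylation of the neighbouring genes cannot be told apart there.

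**Figure D4:**
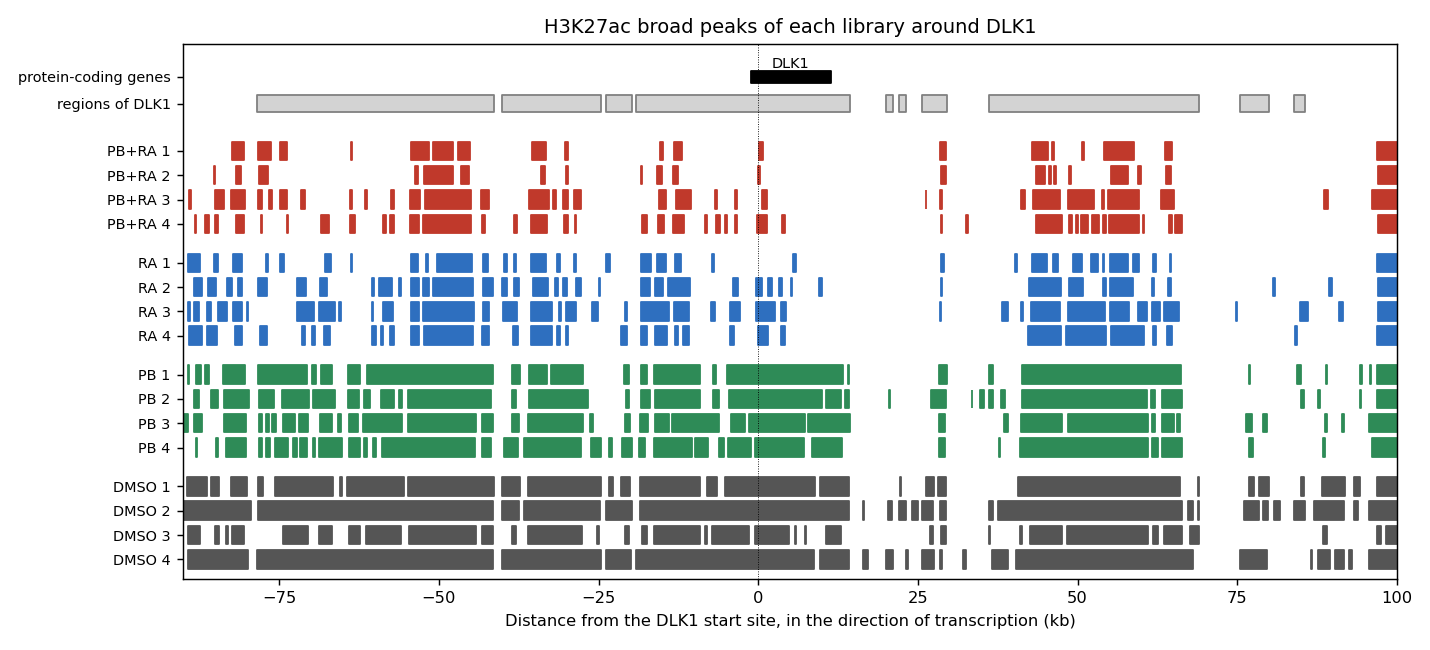
Broad peaks of the 16 libraries (1 row each) around DLK1, by distance from its start site in kb, with the regions of DLK1 above. Peaks cover 17.8 to 58.7 kb of these regions in the PB+RA and RA libraries and 81.9 to 128 kb in the PB and DMSO libraries.

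HES1, the repressor that Notch induces in neural progenitors, lies at chr3:193853937-193856521 (plus strand). Its total was 213, 209.8, 178 and 178 in PB+RA, 309, 306, 281 and 302 in RA, 266, 267, 215 and 220.4 in PB, and 342, 397, 340.3 and 343 in DMSO. No PB+RA, RA or PB library reached the lowest DMSO library, and PB+RA was also below PB and RA in all libraries. The difference was -0.87 ± 0.11 with PB+RA (limma adjusted p = 4.6e-06), -0.24 ± 0.11 with RA (limma adjusted p = 0.154) and -0.56 ± 0.11 with PB (limma adjusted p = 0.00195). With GC centring the PB+RA call stayed (-0.66, limma adjusted p = 0.00163) and the PB call ended (-0.38, limma adjusted p = 0.12), as it did with quantile normalization (-0.44).

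The start-site region 9 of HES1 (chr3:193850062-193862307), which covers the whole gene and the promoter with the pair of RBPJ cores, had peak values of 12.03, 12.1, 8.40 and 9.50 in PB+RA, 18.5, 17.2, 14.7 and 15.04 in RA, 15.03, 15.1, 10.8 and 10.9 in PB, and 18.5, 19.7, 20.1 and 16.6 in DMSO. It was called with PB+RA (-0.79 ± 0.17, limma adjusted p = 0.00102), not after GC centring (-0.49, limma adjusted p = 0.12) or with the share covered (-0.21, limma adjusted p = 0.064). With PB it lay close to the threshold (-0.51 ± 0.17, limma adjusted p = 0.0546) and was called with a pseudocount of 0.25, with only regions that had a peak in at least 4 libraries, and without PB+RA replicate 3 (limma adjusted p = 0.038, 0.047 and 0.039). Region 10, 11.1 kb downstream (chr3:193865025-193867419, intergenic), showed the largest called difference at this gene, with 0, 0.190, 1.31 and 0 in PB+RA and 1.46, 0, 0.210 and 0.422 in PB, against 2.82, 2.76, 2.18 and 1.89 in DMSO (-1.40 ± 0.32 and -1.24 ± 0.32, limma adjusted p = 0.00217 and 0.0182). All 4 DMSO libraries were above all of these. The PB call ended without DMSO replicate 1, DMSO replicate 2 or PB replicate 2 (limma adjusted p = 0.052 to 0.064), with only those groups in the fit (0.057) and with the share covered (0.18). Against this trend, region 5, 45.4 kb upstream, was called higher with RA (1.29).

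HEY1, a relative of HES1 that partners with it in repression, lies on chromosome 8 on the minus strand. Its total was 381, 363, 379 and 365 in PB+RA, 402, 373, 399.7 and 406 in RA, 253, 237, 217 and 282 in PB, and 220.4, 274, 220.7 and 265 in DMSO. Every PB+RA and RA library was above every PB and DMSO library, with an SD of 9.40 in PB+RA and 15.1 in RA. The difference was 0.61 ± 0.11 with PB+RA (limma adjusted p = 0.000175), 0.69 ± 0.11 with RA (limma adjusted p = 7.77e-05) and 0.01 ± 0.11 with PB (limma adjusted p = 0.958). After GC centring the RA call stayed (0.61, limma adjusted p = 0.00029), and with PB+RA the difference was 0.44, under the size needed (limma adjusted p = 0.00452). Without scaling of the libraries both calls ended (0.55 with PB+RA and 0.63 with RA, limma adjusted p = 0.061 and 0.068), as they did with only start sites within 10 kb (0.24 and 0.30, limma adjusted p = 0.11 and 0.078).

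The regions called higher at HEY1 lay upstream of the gene. The start-site region 2, which covers the gene, had peak values of 9.35 to 11.3 in PB+RA, 10.0 to 11.9 in RA, 6.80 to 8.69 in PB and 8.78 to 9.49 in DMSO, and was not called (limma adjusted p = 0.22 with PB+RA and 0.171 with RA). Region 6, intergenic and 25.4 kb upstream, had 2.98, 2.86, 3.01 and 2.56 in PB+RA, 2.77, 2.47, 3.30 and 2.76 in RA, 0, 0.448, 0 and 0.263 in PB, and 0.219, 0.613, 0 and 0.551 in DMSO. The lowest PB+RA or RA library was above every PB and DMSO library there (1.54 ± 0.23 with PB+RA and 1.53 ± 0.23 with RA, limma adjusted p = 4.35e-05 and 7.61e-05). With peaks of a −log10 q of at least 5 the difference with RA was 0.00 and no longer called (limma adjusted p = 1), and PB+RA was called higher than RA (1.6, limma adjusted p = 0.000285). Regions 4 and 10, 15.4 and 47.7 kb upstream, were called higher with both (0.59 and 0.80 with PB+RA, 0.57 and 0.88 with RA), and region 8 was called with RA (1.33). Of the 5 member regions with a retinoic acid response element in their middle, region 8 of HEY1 was the only 1 called with RA. The other member regions called higher with RA held none there. Region 12, 84.9 kb upstream, went the other way with PB+RA (-1.20).

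**Figure D5:**
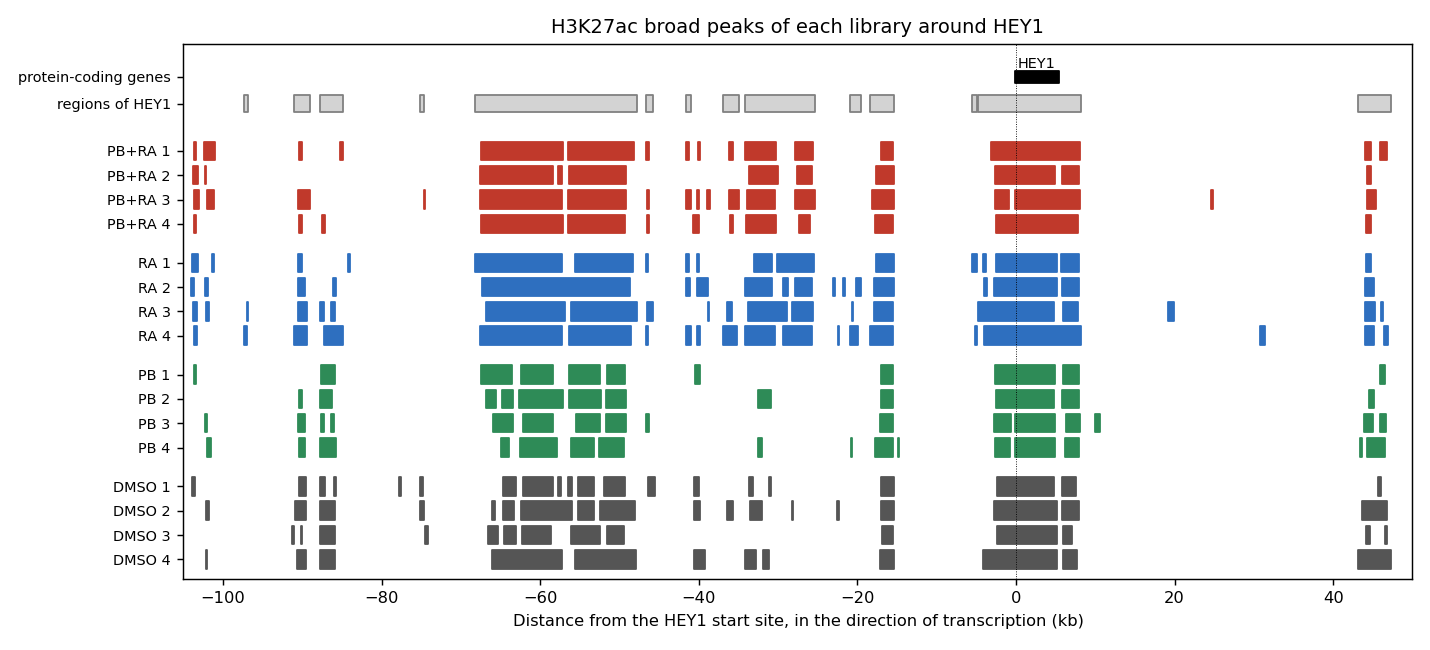
Broad peaks of the 16 libraries (1 row each) around HEY1, by distance from its start site in kb, with the regions of HEY1 above. At region 6, which begins 25.4 kb upstream, all PB+RA and RA libraries hold wide peaks (peak values of 2.47 to 3.30) where PB and DMSO libraries hold short peaks or none (0 to 0.613).

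The combination was also set against each drug alone. In PB+RA against PB, DLK1 was called lower (-2.44 ± 0.21, limma adjusted p = 1.07e-07) and HEY1 higher (0.59 ± 0.11, limma adjusted p = 0.000527), where 5.46% and 9.82% of all genes were called. Of those called, 64.3% were higher, and 77.9% without scaling, 43% with quantile normalization and 51% with GC centring. JAG1 was called higher as well without DMSO replicate 1 or PB replicate 3 (limma adjusted p = 0.019 and 0.045), but its total includes region 4, in the set only through its peaks in PB+RA. NOTCH1 was called lower without PB+RA replicate 4 (-2.45, limma adjusted p = 0.0018) or with quantile normalization (-2.59, limma adjusted p = 0.011). The call of HEY1 ended with GC centring, quantile normalization, peaks of a −log10 q of at least 5, the share covered and start sites within 10 kb (0.43 to 0.48). In PB+RA against RA, NOTCH1 (-3.80 ± 0.74), NOTCH3 (-1.61 ± 0.41), JAG2 (-2.46 ± 0.60) and HES1 (-0.62 ± 0.11) were called lower and none higher, where 11.4% and 6.73% of all genes were called, 37.1% of them higher, and 63.6% with GC centring (limma adjusted p = 0.00157, 0.00943, 0.00708 and 0.00069). No member was higher at an unadjusted p under 0.05 either, and 4 were lower (40% in either direction, against 34.7% of all genes). All 4 calls ended with GC centring (limma adjusted p = 0.0611, 0.126, 0.262 and 0.0579), and that of HES1 also without scaling of the libraries and with the share covered (limma adjusted p = 0.098 and 0.085). With peaks of a −log10 q of at least 5 those of NOTCH1 (-0.97) and JAG2 (-1.96) ended as well (limma adjusted p = 0.54 and 0.23). DLK1, not called here (-0.30), was called lower with only start sites within 10 kb (-1.17, limma adjusted p = 0.014).

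Over the member regions, 4 were called higher and 6 lower in PB+RA against PB (11.2% and 5.38% of all regions), with 4 of the 6 at DLK1. The call at region 1 of DLL3 (-0.77, limma adjusted p = 0.0492) was marginal and ended with GC centring, without scaling, with a pseudocount of 0.25, with peaks of a −log10 q of at least 5, with the share covered, with only those groups in the fit, and when most of the single libraries were left out (limma adjusted p = 0.051 to 0.67). That at region 4 of JAG1 (1.46) ended with GC centring, with the share covered, with only those groups in the fit, and without PB replicate 1 or PB+RA replicate 1, 2 or 3 (limma adjusted p = 0.050 to 0.084). This region was in the set only through its peaks in PB+RA. In PB+RA against RA, 0 were called higher and 6 lower (8.63% and 5.92% of all regions), while 3 were higher and 24 lower at an unadjusted p under 0.05 (32.5% in either direction, against 33.8% of all regions). Without RA replicate 1 there were 2 higher, and 1 without PB+RA replicate 2, 3 or 4. Among the 6 lower were region 13 of NOTCH1, region 6 of NOTCH3, region 3 of JAG2 and region 9 of HES1. GC centring ended these calls (-0.55, -0.72, -0.57 and -0.35, limma adjusted p = 0.30, 0.12, 0.32 and 0.34), and each also ended under other settings. Whether PB and RA together differed from the sum of their separate effects was tested with an interaction term. It passed for no member's total (limma adjusted p = 0.764 to 0.948, and none at an unadjusted p under 0.05), where 1.15% of all genes passed.

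The authors' mean log2 concentrations, which have no replicates here and carry no test, gave the directions a second measure. With PB+RA 56 of 83 regions were below DMSO by more than 0.5 and 10 were above it by as much, against 31.7% and 32.1% of all regions. With RA these were 21 and 15 (21.5% and 27.9% of all regions), and with PB 51 and 4 (26.8% and 21%). All 16 regions of NOTCH1 were below DMSO with PB, by 0.84 to 2.17, and all 10 regions of DLK1 were below it with RA, by 0.61 to 2.47. At DLK1 the 2 measures differed with PB. By concentration 9 of its 10 regions were below DMSO, 5 of them by more than 0.5 (median -0.55), with region 4 at -0.38, while the gene total differed by 0.06. At HEY1, 8 of 14 regions were above DMSO by more than 0.5 with RA, and the highest difference was 1.80.

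Of 44 further genes of the pathway (other receptors and ligands, the enzymes that modify and cut the receptors, partners of RBPJ, regulators and other HES and HEY genes), 42 had a region, and NOTCH4 and HES2 had none. With PB, 0 of the 42 totals were called higher and 6 lower, against 4.62% and 12.2% of all genes. At an unadjusted p under 0.05 these were 1 and 14 (35.7% in either direction, against 33.2% of all genes). The largest of the 6 were NRARP (-2.02), a feedback inhibitor that Notch induces, HES3 (-1.68) and HES6 (-0.93), relatives of HES1, and LFNG (-0.90), the Fringe enzyme that changes which ligands a receptor prefers. NRARP was at 22.6, 26.5, 14.6 and 10.3 in PB, against 109.2, 73.5, 45.1 and 80.9 in DMSO, and was the only 1 of the 6 still called lower after GC centring.

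With RA, 3 pathway genes were called higher and 4 lower, against 9% and 6.66% of all genes. MAML2, a coactivator of the Notch and RBPJ complex, showed the largest gain, at 484, 451, 338 and 375 in RA, against 163, 144, 153 and 167 in DMSO (1.38 ± 0.13), and DTX4 (1.04) was also higher. NEURL1B (-1.13), NEURL1 (-0.57), LFNG (-0.55) and HEYL (-0.95), a relative of HEY1, were lower. NEURL1B, an E3 ligase of the Neuralized family that acts on ligands, was at 76.3, 89.9, 83.0 and 80.9 in RA, against 176, 204, 162 and 186 in DMSO. MAML2, DTX4, NEURL1B, NEURL1, LFNG and HEYL were called in the same direction after GC centring.

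With PB+RA, 3 were called higher and 13 lower, against 15.2% and 19.2% of all genes. The largest losses were MFNG (-2.35), another Fringe enzyme, HES3 (-2.19), NRARP (-2.13) and NEURL1B (-1.67), and the gains were PSEN2 (1.08), a catalytic subunit of the enzyme that cuts Notch, DTX4 (0.98) and MAML2 (0.85). After GC centring 6 were called higher and 8 lower (15.9% and 11.1% of all genes), with MFNG, HES3, NRARP and NEURL1B among the 8 and MAML2 not among the 6. MAML2 was called lower in PB+RA than in RA (-0.52 ± 0.13, limma adjusted p = 0.00688), and it passed the interaction test (-0.84 ± 0.18, limma adjusted p = 0.0241). The median difference over the 42 genes was -0.30 with PB+RA, 0.00 with RA and -0.31 with PB, and over all genes -0.05, -0.01 and -0.14.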

How the data were processed

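H3K27ac was measured by ChIP-seq in 4 groups of 4 libraries with 16 inputs. Per the submitters' processing notes, the authors used fastp 0.12.4, Bowtie2 2.4.4, MACS2 2.2.7.1 and DiffBind 3.4 on hg19. The authors deposited broad peaks for each library, with the fold enrichment over input and a −log10 q-value of each peak, and mean log2 concentrations of each group over 92108 regions found in at least 2 of 4 replicates of a group. The deposited comparison columns, which hold fold changes, p-values and false discovery rates, were not used. Depth per library is not in these files, so precision is given by the spread between libraries, which come from different passages.

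From the peaks, peak values and gene totals were computed as defined in the text. 16 regions on other sequence names were left out, and 1 was added to the deposited starts. Libraries were scaled to one median over the regions with a peak in all 16. Values were fitted as log2(value + 1) with limma 3.58.1 (R 4.3.3) with a trend over all features and all 4 groups, and p-values were adjusted by Benjamini-Hochberg within each comparison. Fits were tested on simulated data. Exact permutation tests were two-sided with 70 arrangements. Genes were placed with 89204 protein-coding start sites, and sequences and GC content were read from hg19 with pysam 0.24.0. The alternatives were other scalings, pseudocounts, filters, measures, fold minimums, gene windows, GC centring, replicate blocks, groups in the fit, and leaving out each library.

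All 10 members are named, with the region at the start site and the called region of largest difference from DMSO, and for the rest of the pathway up to 4 called genes in each direction. Other regions are named where a count is broken down, and were chosen after their values were seen. The members and lists were chosen with earlier results of these data known. Values of 1 pathway gene and 1 marker gene are not reported here.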

Additional observations from a re-analysis of the deposited data

Results flagged for a closer look

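In 3 of 40 groups of 4 libraries, the gene total of 1 library lay far from the other 3. Chance flags about 1 in 20 groups. For NOTCH1, DMSO replicate 3 was at 22.52, against 73.02 to 89.04 in the other DMSO libraries, and this library also held the fewest peaks. For HES1, DMSO replicate 2 was at 396.5, against 340.3 to 342.6 in the other DMSO libraries. For NOTCH2, RA replicate 4 was at 0.9861 and the other RA libraries were at 0, which rests on a single short peak.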

How the results depend on the processing

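No gene total or named region that was called changed direction. Over called and uncalled differences together, the sign changed in 73 of 3690 values, over 27 of 125 differences. None of the 73 was called before or after the change (DLL1 in PB+RA against DMSO was 0.33 and DLK1 in PB+RA against RA 0.17 with GC centring). The counts of called genes and regions from here on are of the 10 members and their 83 regions, unless all genes or all regions are named. Without scaling, 0 genes were higher with RA and 0 with PB+RA. With quantile normalization, 0 were higher and 2 lower in PB+RA against PB. With peaks of a −log10 q of at least 5, PB gave 1 region and 1 gene lower, RA 1 region higher, 5 regions and 1 gene lower, PB+RA 2 regions higher and 8 lower, PB+RA against PB 1 region and 0 genes higher, and PB+RA against RA 1 region higher, 2 regions and 2 genes lower. With the share covered, PB gave 3 regions lower, RA 3 regions higher and 1 gene lower, PB+RA 2 regions and 0 genes higher, and PB+RA against PB 1 region and 0 genes higher. With a fold minimum of 1, regions and genes higher were 3 and 0 with RA, 3 and 0 with PB+RA, and 2 and 0 in PB+RA against PB. With start sites within 10 kb, PB gave 3 regions lower, RA 0 regions and 0 genes higher and 2 regions lower, PB+RA 0 regions and 0 genes higher and 10 regions lower, and PB+RA against PB 1 region and 0 genes higher and 2 regions lower. With GC centring, PB gave 2 regions and 2 genes lower, PB+RA 3 regions and 0 genes higher and 15 regions and 3 genes lower, PB+RA against PB 2 regions and 0 genes higher, and PB+RA against RA 3 regions and 0 genes lower. With only the 2 groups compared, PB gave 1 region lower, PB+RA against PB 2 regions and 2 genes higher, and PB+RA against RA 3 regions lower. Calls over all genes and all regions moved under these settings too. With PB in either direction they were 2784 genes and 8495 regions as reported, and 1006 and 1526 with peaks of a −log10 q of at least 5. With the share covered they were 2144 and 3806, and with GC centring 1233 and 4832. Why the other counts moved was not tested.

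Leaving out each library, regions higher and lower ranged over 0 to 1 and 2 to 22 with PB, 3 to 8 and 7 to 12 with RA, 4 to 5 and 19 to 39 with PB+RA, 3 to 4 and 5 to 8 in PB+RA against PB, and 0 to 2 and 4 to 8 in PB+RA against RA. Genes lower were 4 with PB, 1 to 2 with RA, 4 to 6 with PB+RA, 1 to 2 in PB+RA against PB and 4 in PB+RA against RA. Genes higher were 1 with RA, 1 with PB+RA and 1 to 2 in PB+RA against PB. Over all regions, calls in either direction ranged over 5279 to 11755 with PB, 13202 to 16988 with RA and 23610 to 31861 with PB+RA.

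The labels say nothing of what a shared replicate number means. Same-numbered libraries of different groups correlated in their deviations at -0.078 to 0.226 (median 0.138, against -0.099 for different numbers), and 9 of 16 libraries correlated best with their own number. Pairs with different numbers were not all alike. Across groups, replicates 1 and 2 correlated positively with each other (DMSO 1 and RA 2 at 0.24), as did most of 3 with 4 (RA 3 and PB+RA 4 at 0.239). Replicates 1 or 2 with 3 or 4 were mostly negative (DMSO 4 and RA 1 at -0.261). What these replicates share was not tested, and the main fit leaves it out. Since not every same-numbered pair correlated above 0.1, the libraries were not treated as paired. With a replicate block, the start-site region of NOTCH1 was called with PB (-1.24, limma adjusted p = 0.018) and PB+RA (-0.89, limma adjusted p = 0.042) and that of HES1 with PB (limma adjusted p = 0.030), 2 genes were higher and 2 lower in PB+RA against PB, and 10 regions lower in PB+RA against RA. Block and GC centring together gave 3 regions lower with PB, 16 regions lower and 0 genes higher with PB+RA, 0 genes higher in PB+RA against PB, and 2 regions and 1 gene higher and 3 regions and 1 gene lower in PB+RA against RA.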
